A study of Arabidopsis thaliana with 10 samples.

Results

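The comparison described here asks what the loss of the PHYTOCHROME INTERACTING FACTORs (PIFs) did to transcript levels in Arabidopsis thaliana seedlings that already lacked EIN3 and EIL1. The pifq ein3 eil1 seedlings lack PIF1, PIF3, PIF4 and PIF5 as well as EIN3 and EIL1, and the ein3 eil1 seedlings, to which they were compared, lack EIN3 and EIL1 only. The same loss of the PIFs with EIN3 and EIL1 present, pifq against wild-type Col-0, is given beside it. All lines were in the Col-0 background. Seedlings were grown untreated for 3 days in darkness at 22 °C and collected without their roots, with 2 biological replicates per genotype, and polyadenylated RNA was sequenced. The labels give genotypes without naming single alleles. The deposited table holds 1 value per gene and genotype in RPKM (reads divided by the length of the gene and by the library's mapped reads), which was taken as the authors' mean of the 2 samples. Because RPKM is scaled to gene length, levels can be set side by side between genes.

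Members of the comparison were all genes with an RPKM of 1 or more in pifq ein3 eil1 or in ein3 eil1, 17834 of the 33559 identifiers in the table. The last gene inside this rule reached 1.001 RPKM and the first outside it 0.999637 RPKM. Differences are log2(RPKM + 1) in pifq ein3 eil1 minus that in ein3 eil1, a scale that understates the change of genes with low RPKM. A difference of 1 or more in size is called higher or lower. With 1 mean per genotype, the spread between replicates cannot be seen, so no difference below was tested and none has an error, and sequencing depth is unknown.

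PIFs are bHLH transcription factors that accumulate in darkness, bind G-box and PBE-box sequences, and keep seedlings in the etiolated state: a long hypocotyl, a closed hook and undeveloped chloroplasts. Light activates the phytochromes, which cause the PIFs to be degraded, and genes for photosynthesis are then released while genes for elongation lose their activators. EIN3 and EIL1 are the transcription factors through which most ethylene responses run, and ethylene in darkness strengthens the hook and also protects the seedling against premature greening.

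Of the mutated genes, PIF3 stood at 2.35 RPKM in pifq ein3 eil1 and 12.7 in ein3 eil1, and PIF5 at 2.31 RPKM in pifq ein3 eil1 and 5.93 in ein3 eil1, differences of -2.03 and -1.06. PIF1 stood at 11.8 RPKM in pifq ein3 eil1 and 15.5 in ein3 eil1, and PIF4 at 11.6 RPKM in pifq ein3 eil1 and 8.22 in ein3 eil1, so the transcripts of these genes did not mark their mutations. A value for a whole gene does not tell an intact from an interrupted transcript. EIN3 stood at 13.3 RPKM in pifq ein3 eil1 and 17.9 in ein3 eil1, and EIL1 at 10.7 RPKM in pifq ein3 eil1 and 10.8 in ein3 eil1. In seedlings with intact EIN3 and EIL1, EIN3 was at 57.2 RPKM in pifq and 84.0 in Col-0. EIL1 was at 35.6 RPKM in pifq and 44.4 in Col-0. Both lines of the main comparison thus had lower EIN3 and EIL1 levels than pifq and Col-0.

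Of the 17834 genes, 750 were higher in pifq ein3 eil1 than in ein3 eil1 (4.21%) and 741 were lower (4.15%), together 8.36%. Of the large differences more were downward, with 61 genes lower by 3 or more and 15 higher by 3 or more. The 5th percentile of all differences was -0.89 and the 95th was 0.93, with a standard deviation across genes of 0.64. The whole distribution was shifted by a median of 0.13. Scaling the columns to each other by the median of ratios gave 542 higher (3.04%) and 890 lower genes (4.99%), together 8.03%, so the share of called genes that were higher was 37.8% after scaling and 50.3% before it. Scaling takes up to 0.15 off each difference, so small positive ones, such as those of PIN7, GLK1 and HLS1 below, turn negative. Medians of gene lists are therefore also given relative to the median of all genes. Calls were more frequent among highly expressed genes: of 754 genes reaching 200 RPKM or more, 9.68% were higher and 9.42% lower, against 3.84% and 3.42% of 6689 genes at 10 to 50 RPKM. The plot of levels in both genotypes shows this, with the named genes farthest from the diagonal.

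**Figure D1:**
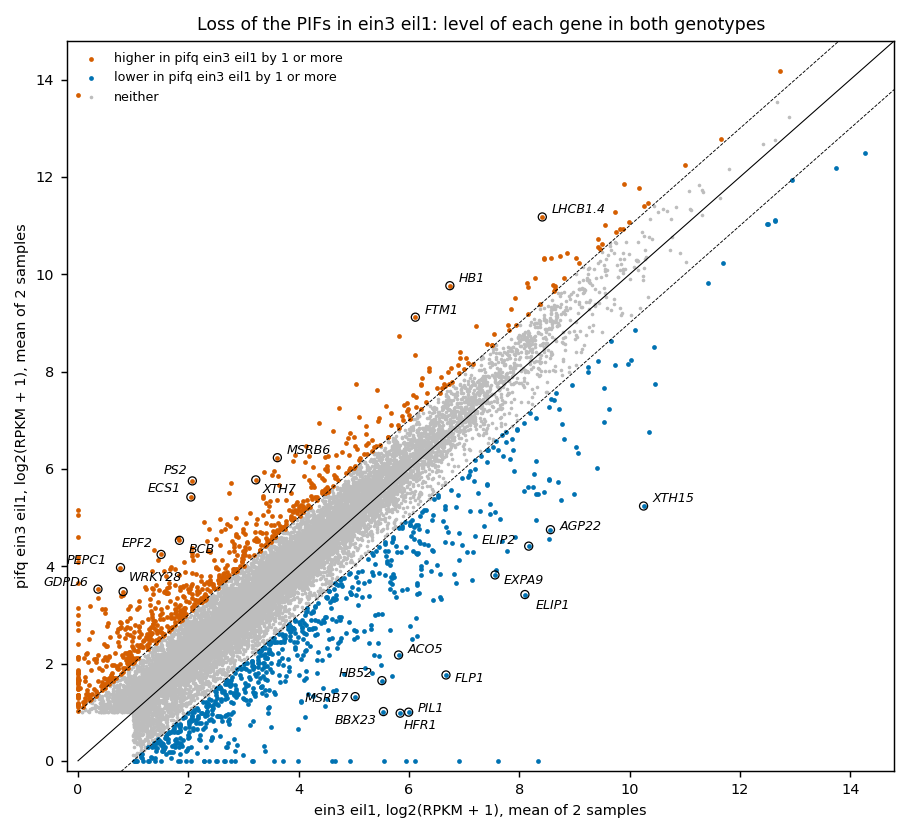
Level of each of 17834 genes in pifq ein3 eil1 (vertical) and ein3 eil1 (horizontal), both as log2(RPKM + 1) of the authors' mean of 2 samples; the solid line marks equal levels and the dashed lines a difference of 1. Orange points (750) were higher and blue points (741) lower in pifq ein3 eil1, and the circled genes are the 12 farthest each way among genes with a symbol and 10 RPKM or more, from XTH15 with a difference of -5.02 to PS2 with 3.68.

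The genes that PIFs activate during shade and elongation growth stood lower in pifq ein3 eil1 for the most part, and 3 of the 12 lowest genes with a symbol and 10 RPKM or more were among them. Of 20 such genes, 12 were lower, 1 was higher and 7 were neither, with a median difference of -1.32, or -1.45 relative to all genes. XTH15 (AT4G14130), which encodes a xyloglucan endotransglucosylase/hydrolase that remodels the wall of elongating cells, stood at 36.7 RPKM in pifq ein3 eil1 and 1219 in ein3 eil1, a difference of -5.02 and a 33.2-fold lower RPKM. PIL1 (AT2G46970), a bHLH gene that is a standard readout of PIF activity, stood at 1.0 RPKM in pifq ein3 eil1 and 62.7 in ein3 eil1, a difference of -4.99. HFR1 (AT1G02340), whose product forms inactive dimers with PIFs, stood at 0.971 RPKM in pifq ein3 eil1 and 56.3 in ein3 eil1, a difference of -4.86. In pifq ein3 eil1, PIL1 and HFR1 lay just under the 1 RPKM limit, so both passed the filter through ein3 eil1 alone.

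The homeodomain genes of the shade response were graded. ATHB2, a growth-promoting HD-ZIP factor, stood at 5.80 RPKM in pifq ein3 eil1 and 63.9 in ein3 eil1, a difference of -3.25, and ATHB4 at 1.05 RPKM in pifq ein3 eil1 and 4.41 in ein3 eil1, a difference of -1.40. Their relatives HAT1, HAT2 and HAT3 differed by -0.69, -0.49 and -0.12 and passed no threshold. ST2A, a sulfotransferase that acts on hydroxyjasmonate, stood at 6.69 RPKM in pifq ein3 eil1 and 69.2 in ein3 eil1, and CKX5, a cytokinin oxidase that breaks down cytokinin, at 2.46 RPKM in pifq ein3 eil1 and 27.4 in ein3 eil1. The auxin pathway repressor genes IAA29 and IAA19 differed by -2.30 and -1.94. IAA19 kept 61.2 RPKM in pifq ein3 eil1, against 238 in ein3 eil1, so it was still well expressed without PIF1, PIF3, PIF4 and PIF5.

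The auxin biosynthesis genes of the list went separate ways. YUC8, a flavin monooxygenase of the last step of auxin synthesis and a known PIF target, stood at 12 RPKM in pifq ein3 eil1 and 16.3 in ein3 eil1, a difference of -0.41. YUC9 was the 1 higher member, at 2.77 RPKM in pifq ein3 eil1 and 0.309 in ein3 eil1, and it passed the filter only through pifq ein3 eil1. The growth-restraining factors PAR1 and PAR2 differed by -1.47 and -0.91, and PRE1, an atypical bHLH factor that promotes elongation, by -1.20.

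**Figure D2:**
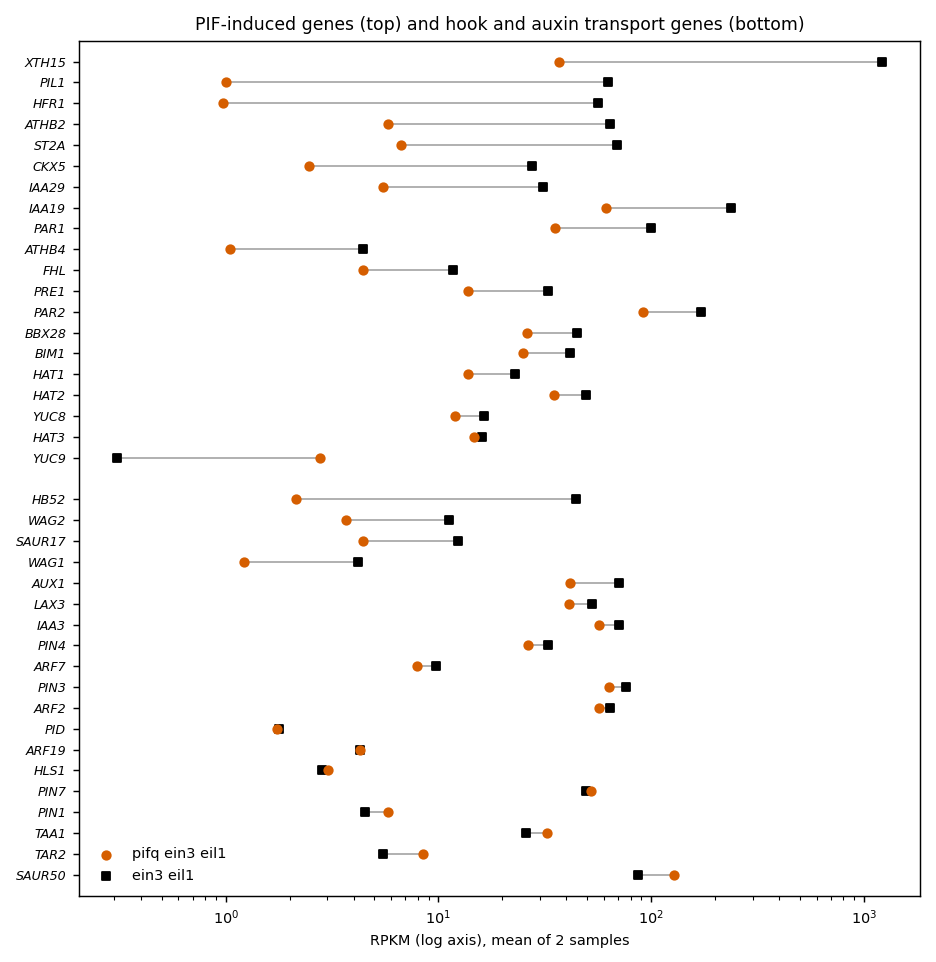
RPKM on a log axis in pifq ein3 eil1 (orange circles) and ein3 eil1 (black squares), authors' means of 2 samples, for 20 PIF-induced genes (top) and 19 hook and auxin transport genes (bottom), joined by a grey line. The gap is widest for XTH15, PIL1, HFR1 and HB52, whereas HLS1 and the PIN genes lie close together.

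Among 19 apical hook and auxin transport genes, 4 stood lower and none higher, the median being -0.25. HB52 (AT5G53980), a homeodomain factor, stood at 2.13 RPKM in pifq ein3 eil1 and 44.5 in ein3 eil1, a difference of -3.86. The kinase genes WAG1 and WAG2, whose products set the direction of auxin efflux and are needed for a normal hook, stood at 1.23 and 3.66 RPKM in pifq ein3 eil1 and at 4.18 and 11.3 RPKM in ein3 eil1. SAUR17, a hook gene named for the SAUR-like family, stood at 4.44 RPKM in pifq ein3 eil1 and 12.3 in ein3 eil1, a difference of -1.29. The efflux carrier genes PIN3, PIN4 and PIN7 differed by -0.25, -0.30 and 0.08. HLS1, the central hook gene, was picked after its values were seen: it stood at 3.04 RPKM in pifq ein3 eil1 and 2.84 in ein3 eil1, a difference of 0.07, or -0.04 after scaling. With EIN3 and EIL1 intact, it stood at 7.16 RPKM in pifq and 11.2 in Col-0.

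The 31 auxin-responsive genes showed no common direction: 4 were lower, 3 higher and 24 neither, with a median of -0.04. Lower members were SAUR22 at 43.2 RPKM in pifq ein3 eil1 and 117 in ein3 eil1, SAUR23, SAUR9 and IAA7, the last a repressor of auxin signalling at 173 RPKM in pifq ein3 eil1 and 380 in ein3 eil1. SAUR genes are early auxin-induced growth genes, and SAUR19 to SAUR24 are close copies among which reads may be divided unevenly. Higher members were SAUR14 at 134 RPKM in pifq ein3 eil1 and 33.4 in ein3 eil1, and GH3.3 and GH3.6, whose products conjugate auxin to amino acids, with differences of 1.36 and 1.11. In pifq over Col-0, the same 31 genes held 16 lower and 1 higher member, with a median of -1.01, or -0.96 relative to all genes, against -0.17 on that measure without EIN3 and EIL1. In that comparison 6.44% of all genes compared were lower and 3.5% higher. SAUR24 differed by -0.40 without EIN3 and EIL1 and by -2.66 with them, and SAUR10 by -0.04 without and -1.75 with them. Both lists of values come from separate samples, and the difference between them was not tested.

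Cell wall loosening genes split by family member. Of 25 expansin and XTH genes, 5 were lower and 3 higher, with a median of -0.13. XTH17 stood at 73.1 RPKM in pifq ein3 eil1 and 227 in ein3 eil1, and XTH18 at 21.2 RPKM in pifq ein3 eil1 and 72.2 in ein3 eil1, differences of -1.62 and -1.72. XTH30, EXPA11 and XTH33 were the other lower members, at -1.27, -1.27 and -1.06. EXPA1 went the opposite way, at 490 RPKM in pifq ein3 eil1 and 148 in ein3 eil1, a difference of 1.72, and EXPA10 and EXPB3 were higher by 1.6 and 1.35. Outside the list, EXPA9 was among the lowest of all genes, at 13.1 RPKM in pifq ein3 eil1 and 188 in ein3 eil1, and AGP22, an arabinogalactan protein gene, stood at 25.9 RPKM in pifq ein3 eil1 and 378 in ein3 eil1.

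XTH17 and XTH18 lie on different chromosomes yet share the last 73 bases before their annotated starts without a difference, and this shared stretch holds a PBE-box. The 250 bases before each start are shown 5′ to 3′ on the gene's strand, with the match in capitals, because both genes were lower by nearly the same amount. They are from RefSeq's TAIR10.1, chr1:24256804-24257053 on the plus strand for XTH17 and chr4:14827212-14827461 on the minus strand for XTH18. In both, the match starts at base -63, counted back from the annotated start, and reads CATGTG, the reverse complement of CACATG. Genes this alike can also share reads. In the same list, the higher genes EXPA1 and EXPA10 also held a PBE-box in this window. The lower gene XTH30 and the higher gene EXPB3 held none.
XTH17: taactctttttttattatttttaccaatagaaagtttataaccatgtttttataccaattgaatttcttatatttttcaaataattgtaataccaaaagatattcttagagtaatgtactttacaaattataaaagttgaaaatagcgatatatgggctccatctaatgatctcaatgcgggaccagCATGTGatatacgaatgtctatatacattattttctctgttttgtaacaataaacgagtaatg
XTH18: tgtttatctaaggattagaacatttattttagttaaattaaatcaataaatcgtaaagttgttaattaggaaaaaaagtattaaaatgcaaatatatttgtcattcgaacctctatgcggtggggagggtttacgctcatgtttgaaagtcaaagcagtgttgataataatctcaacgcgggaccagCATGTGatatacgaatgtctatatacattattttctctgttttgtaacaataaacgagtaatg

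Over all protein-coding nuclear members, the 250 bases before the start held CACGTG, the G-box, on either strand in 7.48% of 17294 genes and CACATG, the PBE-box, in 11.0%. Among the 631 lower genes these shares were 9.67% and 18.2%, and among the 709 higher genes 7.76% and 10%. Among 127 genes lower by 2 or more, 8.66% held a G-box and 15% a PBE-box. Of the 20 PIF-induced genes, 2 held a G-box and 5 a PBE-box in this window, and PIL1, HFR1 and XTH15, the lowest of the list, held neither. The letters CACATGTG hold a PBE-box on both strands and were counted as 1 gene. A match describes the sequence and does not show binding, and PIF sites outside this window were not searched.

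Regulators of the light response gave the next group of large differences. Of 31 light signalling and greening regulators, 6 were lower and 1 higher, with a median of -0.03, so the effect lay in single members. ELIP1 and ELIP2 encode early light-induced proteins that bind pigments while chloroplasts form. ELIP1 (AT3G22840) stood at 9.68 RPKM in pifq ein3 eil1 and 274 in ein3 eil1, a difference of -4.68, and ELIP2 at 20.3 RPKM in pifq ein3 eil1 and 287 in ein3 eil1, a difference of -3.76. BBX23 (AT4G10240), a B-box zinc finger gene of the light response, stood at 1.02 RPKM in pifq ein3 eil1 and 45.4 in ein3 eil1, a difference of -4.52. Its relative BBX20 was lower too, at -1.18, but BBX25, a B-box gene whose product represses light responses, stood at 19.6 RPKM in pifq ein3 eil1 and 3.21 in ein3 eil1, a difference of 2.29. PHYA, the photoreceptor for far-red light, stood at 141 RPKM in pifq ein3 eil1 and 290 in ein3 eil1, and FHY1, which carries it into the nucleus, at 21.5 RPKM in pifq ein3 eil1 and 46.3 in ein3 eil1. HY5, the central activator of light responses and also picked after its values were seen, differed by -0.93, and by -1.07 after scaling. The chloroplast activators GLK1 and GLK2 differed by 0.07 and 0.56, under the threshold.

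The ELIP1 promoter is shown because the gene was among the 12 lowest and held a G-box, which begins at base -66. It is not typical of them: ELIP2 and the other genes among the 12 lowest held neither motif in this window. Over all protein-coding nuclear members, 7.48% held a G-box. The sequence is chr3:8085670-8085919 of TAIR10.1, minus strand, with the match in capitals.
ELIP1: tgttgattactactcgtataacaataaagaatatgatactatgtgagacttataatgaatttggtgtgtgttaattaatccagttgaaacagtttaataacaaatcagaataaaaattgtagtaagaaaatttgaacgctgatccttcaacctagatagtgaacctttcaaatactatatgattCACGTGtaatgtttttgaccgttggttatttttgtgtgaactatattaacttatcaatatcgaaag

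Nuclear genes for antenna proteins and photosystem subunits had positive median differences, the antenna proteins the largest. Plastid-encoded genes, described below, were mostly lower. Of 21 light-harvesting genes, 13 were higher and 1 lower, with a median of 1.14, or 1.0 relative to all genes, and 10 were higher after scaling. Together they summed to 52173 RPKM in pifq ein3 eil1 and 19965 in ein3 eil1. LHCB1.4 (AT2G34430), a main antenna protein of photosystem II, stood at 2316 RPKM in pifq ein3 eil1 and 341 in ein3 eil1, a difference of 2.76. LHCB1.1 stood at 3696 RPKM in pifq ein3 eil1 and 954 in ein3 eil1, and LHCB2.2 at 1296 RPKM in pifq ein3 eil1 and 350 in ein3 eil1. LHCB1 and LHCB2 copies are nearly identical, so the split of reads within each group is uncertain. LHCA1 and LHCA4, antenna proteins of photosystem I, differed by 1.57 and 1.48. The 1 lower member was LHCB4.3, at 4.1 RPKM in pifq ein3 eil1 and 17.5 in ein3 eil1, a difference of -1.86. In bulk seedlings, fewer cells with a transcript and less of it per cell cannot be told apart, here or in any group below.

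Nuclear genes for photosystem subunits and electron carriers moved by smaller and more even amounts. Of 28 genes, 9 were higher and none lower, with a median of 0.94, or 0.81 relative to all genes, and 27 of the differences lay between 0.49 and 1.37. After scaling, 3 were past the threshold. PETE1, a plastocyanin gene, stood at 312 RPKM in pifq ein3 eil1 and 120 in ein3 eil1, PSAN at 1287 RPKM in pifq ein3 eil1 and 519 in ein3 eil1, and PSAH2 at 1696 RPKM in pifq ein3 eil1 and 691 in ein3 eil1. PSBS, needed to dissipate excess light as heat, was alone below 0, at 673 RPKM in pifq ein3 eil1 and 843 in ein3 eil1. Of 20 Calvin cycle genes, 1 was higher and 2 lower, with a median of 0.52. GAPA-2, a chloroplast glyceraldehyde-phosphate dehydrogenase gene, stood at 460 RPKM in pifq ein3 eil1 and 224 in ein3 eil1, a difference of 0.88 after scaling. The Rubisco small-subunit gene RBCS2B was lower, at 1205 RPKM in pifq ein3 eil1 and 3322 in ein3 eil1, while its neighbours in sequence RBCS1B and RBCS3B differed by 0.71 and 0.36, a split that close copies make uncertain.

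**Figure D3:**
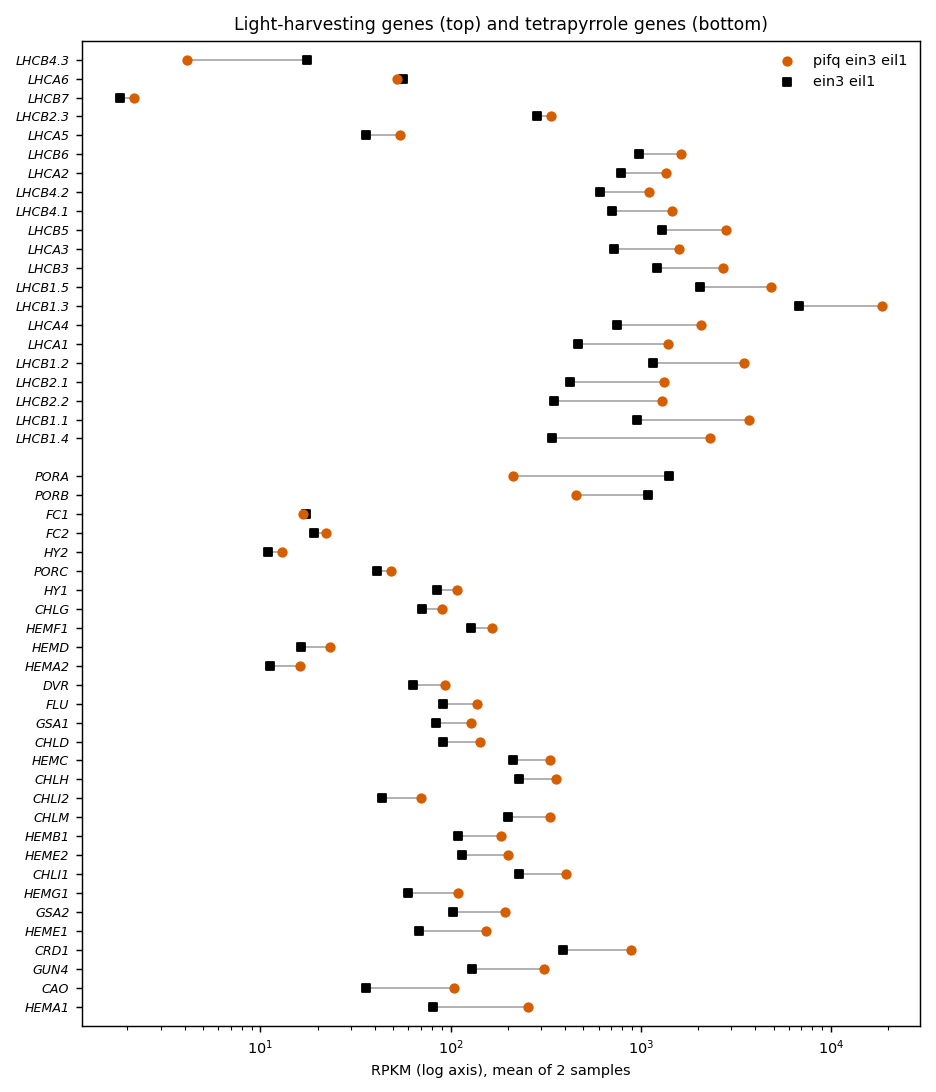
RPKM on a log axis in pifq ein3 eil1 (orange circles) and ein3 eil1 (black squares), authors' means of 2 samples, for 21 light-harvesting genes (top) and 29 tetrapyrrole genes (bottom). Most orange circles lie to the right of their squares. PORA, PORB and LHCB4.3 lie to the left, past the threshold, and LHCA6 and FC1 lie slightly to the left.

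Most chlorophyll and heme synthesis genes did not pass the threshold. Of 29 tetrapyrrole genes, 5 were higher, 2 lower and 22 neither, with a median of 0.63, or 0.49 relative to all genes, and 4 were higher after scaling. HEMA1, a glutamyl-tRNA reductase at the committed step of the pathway, stood at 255 RPKM in pifq ein3 eil1 and 81.0 in ein3 eil1, a difference of 1.64. CAO, which makes chlorophyll b, stood at 104 RPKM in pifq ein3 eil1 and 36.2 in ein3 eil1, and GUN4, an activator of magnesium chelatase, at 310 RPKM in pifq ein3 eil1 and 130 in ein3 eil1. CRD1, a subunit of the cyclase that closes the fifth ring, stood at 884 RPKM in pifq ein3 eil1 and 389 in ein3 eil1. PORA, the protochlorophyllide oxidoreductase that accumulates in darkness, stood at 213 RPKM in pifq ein3 eil1 and 1411 in ein3 eil1, a difference of -2.72. PORB differed by -1.25, at 459 RPKM in pifq ein3 eil1 and 1091 in ein3 eil1, and PORC, the light-induced form, by 0.24. The plot of light-harvesting and tetrapyrrole genes sets these steps side by side.

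Of these 29 genes, 5 held a G-box and 2 a PBE-box before the start. Of the 21 light-harvesting genes, 5 held a G-box and 3 a PBE-box, and of the 28 photosystem genes 5 and 1. Over all protein-coding nuclear members, 7.48% held a G-box and 11.0% a PBE-box. CAO held a PBE-box at base -72 and G-boxes at -52 and -32, and CRD1 a G-box at -52. Both are shown as higher tetrapyrrole genes with a G-box close to the start. The higher genes HEMA1 and GUN4 and the lower genes PORA and PORB held neither motif in this window. CAO is chr1:16851272-16851521 on the minus strand and CRD1 chr3:21076255-21076504 on the plus strand of TAIR10.1, with all matches in capitals.
CAO: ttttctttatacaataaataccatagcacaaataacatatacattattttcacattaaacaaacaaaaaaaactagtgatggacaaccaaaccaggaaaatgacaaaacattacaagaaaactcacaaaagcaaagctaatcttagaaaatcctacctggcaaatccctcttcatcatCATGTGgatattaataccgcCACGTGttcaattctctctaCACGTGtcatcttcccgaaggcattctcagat
CRD1: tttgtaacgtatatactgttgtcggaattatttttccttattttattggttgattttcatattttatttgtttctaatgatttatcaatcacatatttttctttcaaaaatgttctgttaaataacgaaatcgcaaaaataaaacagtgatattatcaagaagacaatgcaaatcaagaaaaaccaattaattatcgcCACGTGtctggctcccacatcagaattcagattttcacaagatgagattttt

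Ethylene genes were set apart because both genotypes lack the main ethylene transcription factors. Of 18 ethylene signalling and response genes compared, 2 were higher and 1 lower, with a median of -0.09. ETR2, an ethylene receptor, stood at 5.95 RPKM in pifq ein3 eil1 and 2.37 in ein3 eil1, and EDF2, an AP2 and B3 domain factor, at 37.4 RPKM in pifq ein3 eil1 and 15.5 in ein3 eil1. EDF3, from the same family, stood at 4.72 RPKM in pifq ein3 eil1 and 12.5 in ein3 eil1. After scaling, ETR2 differed by 0.92 and RAV1, a related factor, passed at -1.09. Ethylene biosynthesis genes diverged more, with 4 higher and 4 lower among 11 compared and a median of -0.67. Of these, 2 lower and 2 higher genes passed the filter through 1 genotype alone. ACO5, an ACC oxidase of the last step, stood at 3.52 RPKM in pifq ein3 eil1 and 55.2 in ein3 eil1, a difference of -3.64, and the ACC synthase gene ACS5 at 0.869 RPKM in pifq ein3 eil1 and 16.4 in ein3 eil1. ACO4 went the other way, at 140 RPKM in pifq ein3 eil1 and 49.9 in ein3 eil1, as did ACO1, at 60.7 RPKM in pifq ein3 eil1 and 22.0 in ein3 eil1.

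Low-oxygen genes were higher. Of 11, 6 were higher and none lower, with a median of 1.09, or 0.96 relative to all genes, and 4 were higher after scaling. HB1 (AT2G16060), a hemoglobin that scavenges nitric oxide in hypoxia, stood at 869 RPKM in pifq ein3 eil1 and 106 in ein3 eil1, a difference of 3.02. HRE2, an ERF transcription factor of the response, stood at 22.6 RPKM in pifq ein3 eil1 and 4.65 in ein3 eil1, and ADH1, the alcohol dehydrogenase of fermentation, at 182 RPKM in pifq ein3 eil1 and 66.5 in ein3 eil1. HRA1 and LBD41, transcription factors of the same response, differed by 1.45 and 1.13. FTM1 (AT1G43800), a stearoyl-ACP desaturase gene outside the list, stood at 555 RPKM in pifq ein3 eil1 and 68.3 in ein3 eil1. With EIN3 and EIL1 intact, HB1 stood at 994 RPKM in pifq and 511 in Col-0, a difference of 0.96, so the lowest of the 4 genotypes was ein3 eil1. In pifq over Col-0, 5 of the 11 genes were higher and none lower.

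Of 8 jasmonate and defence genes compared, 2 were higher and 1 lower. LOX2, a lipoxygenase that starts jasmonate synthesis, stood at 9.16 RPKM in pifq ein3 eil1 and 0.277 in ein3 eil1, and AOC2, an allene oxide cyclase, at 9.66 RPKM in pifq ein3 eil1 and 0.756 in ein3 eil1. Both passed the filter through pifq ein3 eil1 alone and had to stand higher there. MYC2, the central jasmonate transcription factor, stood at 8.90 RPKM in pifq ein3 eil1 and 24 in ein3 eil1. Among 10 clock genes, 4 of the morning-phased MYB family were higher: CCA1 at 64.6 RPKM in pifq ein3 eil1 and 25.1 in ein3 eil1, LHY, RVE1 and RVE8. LHY and RVE1 were no longer past the threshold after scaling, and the evening gene ELF4 was lower, at -1.19. The gibberellin and brassinosteroid list held 2 lower genes of 21, ROT3 and GA2OX8, at -1.19 and -1.13, and the flavonoid list 1 of 8, the regulator MYB75, at -1.26.

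Dehydration and seed maturation genes were lower. Of 9 compared of 13 listed, 8 were lower and none higher, with a median of -1.96. RD29A, a dehydration-induced gene, stood at 10.4 RPKM in pifq ein3 eil1 and 57.7 in ein3 eil1, a difference of -2.37, and the dehydrin genes LTI30 and RAB18 at 0.578 and 1.68 RPKM in pifq ein3 eil1 and at 14.9 and 10.7 RPKM in ein3 eil1. In 6 of the 9 the level in pifq ein3 eil1 was under 1 RPKM, so those genes passed the filter through ein3 eil1 alone and had to differ in that direction, and the count is given as a description. LTI30 stood at 0.468 RPKM in pifq and 1.66 in Col-0, RAB18 at 2.81 RPKM in pifq and 0.485 in Col-0, and LEA7 at 2.36 RPKM in pifq and 0.208 in Col-0. LEA7 was at 2.06 RPKM in pifq ein3 eil1 and 11.6 in ein3 eil1. In these 3 genes ein3 eil1 was the highest of the 4 genotypes.

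**Figure D4:**
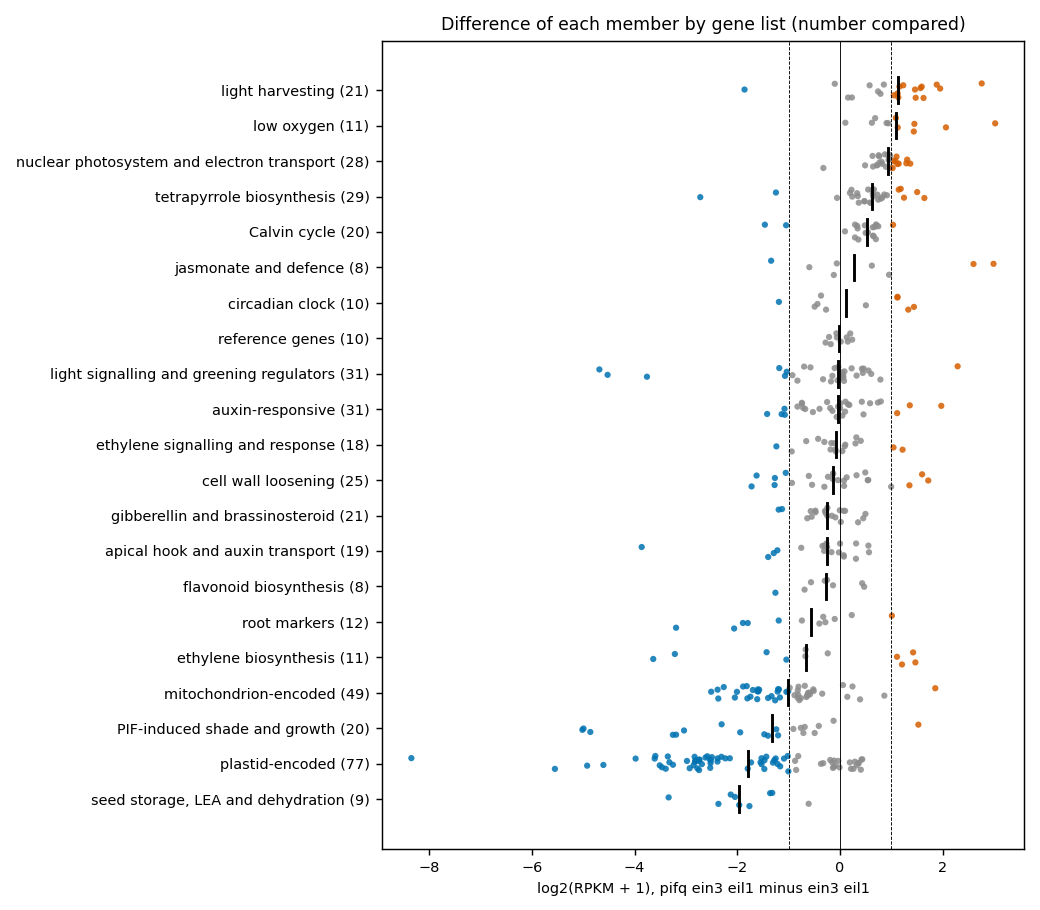
Difference in log2(RPKM + 1), pifq ein3 eil1 minus ein3 eil1, of each gene compared in 21 lists, with the number compared in brackets; black bars are medians, dashed lines the threshold of 1, orange and blue points genes past it. Light harvesting (median 1.14) stands at the top and seed storage, LEA and dehydration genes (median -1.96) at the bottom, and the 10 reference genes lie within the threshold.

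Root markers moved with these groups although roots had been removed at collection. Of 12 compared, 5 were lower and 1 higher, with a median of -0.57, and none was listed at 0. Their summed level was 93.5 RPKM in pifq ein3 eil1 and 251 in ein3 eil1, beside 70.5 RPKM in pifq and 220 in Col-0. CASP1, a scaffold protein of the endodermal barrier, stood at 18.1 RPKM in pifq ein3 eil1 and 69.8 in ein3 eil1, TIP2;3, a tonoplast aquaporin, at 3.53 RPKM in pifq ein3 eil1 and 40.3 in ein3 eil1, and the triterpene gene THAS1 at 6.23 RPKM in pifq ein3 eil1 and 29.2 in ein3 eil1. The higher marker, WOX5 of the root stem cell niche, stood at 1.16 RPKM in pifq ein3 eil1 and 0.0694 in ein3 eil1, a difference of 0.97 after scaling. WOX5 passed the filter through pifq ein3 eil1 alone and had to stand higher there. SCR and SHR, transcription factors of the endodermis, differed by -0.10 and -0.33. The part of root tissue in the lower genes was not tested. None of 10 reference genes passed the threshold, with a median of -0.02.

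Organelle-encoded transcripts were mostly lower or under the threshold. Of 77 plastid-encoded genes compared, 54 were lower and none higher, with a median of -1.80, and of 49 mitochondrion-encoded genes 25 were lower and 1 higher. Under 1 RPKM in pifq ein3 eil1 were 4 of the plastid and 12 of the mitochondrial genes, which therefore passed the filter through ein3 eil1 alone, so both counts are descriptions. Plastid genes made up 3.24% of the summed RPKM in pifq ein3 eil1 and 7.05% in ein3 eil1, beside 2.61% in pifq and 2.72% in Col-0, so ein3 eil1 was the high value of the 4. ATCG01210 stood at 2214 RPKM in pifq ein3 eil1 and 6380 in ein3 eil1, whereas ATCG00790 stood at 3296 RPKM in pifq ein3 eil1 and 2561 in ein3 eil1. Libraries were made from polyadenylated RNA, and how much organelle RNA each of them took up was not tested. Among nuclear genes and those without an entry in the reference, 749 were higher and 662 lower.

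A further list, phosphate starvation, was drawn up after the largest differences had been seen, so its count is no support for them. Of 16 genes compared, 9 were higher and none lower, and 3 of the higher genes passed the filter through pifq ein3 eil1 alone. PS2 (AT1G73010), an inorganic pyrophosphatase, had the largest upward difference of all genes named, at 52.9 RPKM in pifq ein3 eil1 and 3.21 in ein3 eil1, a difference of 3.68. PEPC1 (AT1G17710), a phosphatase of phosphoethanolamine and phosphocholine, stood at 14.7 RPKM in pifq ein3 eil1 and 0.705 in ein3 eil1, and GDPD6, a glycerophosphodiester phosphodiesterase, at 10.5 RPKM in pifq ein3 eil1 and 0.285 in ein3 eil1. SPX1, a phosphate sensor, and the galactolipid and sulfolipid synthases MGD2 and SQD2 differed by 1.59, 1.48 and 1.59. The high-affinity transporter gene PHT1;1 differed by -0.55 and PHO1, which loads phosphate into the xylem, by -0.34.

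Loss of the PIFs with EIN3 and EIL1 intact gave many of the same calls. In pifq over Col-0, 629 of 17963 genes were higher (3.5%) and 1156 lower (6.44%), together 9.94%. These samples are all different from those of the main comparison. Of the genes lower in pifq ein3 eil1, 521 were also lower in pifq, which is 70.3% of the 741 lower without EIN3 and EIL1 and 45.1% of the 1156 lower with them. Of the higher genes, 315 were shared, 42.0% of the 750 and 50.1% of the 629. Across the 17446 genes compared in both, Pearson's r of the differences was 0.69 and Spearman's rho 0.68, a description over genes that are not independent. Genes lower in both by the most were XTH15, FLP1, PIL1, ELIP1, BBX23, HFR1, HB52 and AGP22. Genes higher in both by the most were ECS1, LHCB1.4, PS2, GDPD6, QQS, NAS4, BBX25 and PYL2. ECS1 stood at 41.9 RPKM in pifq ein3 eil1 and 3.13 in ein3 eil1, and at 35.2 RPKM in pifq and 3.07 in Col-0.

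The size of a difference varied between the settings by gene group. PIL1 and XTH15 differed by -4.99 and -5.02 without EIN3 and EIL1 and by -4.75 and -5.29 with them. Light-harvesting genes had a median of 1.14 without EIN3 and EIL1 and 1.70 with them, and LHCB1.4 differed by 2.76 and 4.91. Its level was close in both PIF-deficient lines, 2316 RPKM in pifq ein3 eil1 and 1875 in pifq, but in lines with the PIFs it was 341 RPKM for ein3 eil1 and 61.3 for Col-0. The same held for LHCB1.1, at 3696 RPKM in pifq ein3 eil1 and 3468 in pifq, against 954 in ein3 eil1 and 173 in Col-0. For both antenna genes ein3 eil1 stood above Col-0, while pifq and pifq ein3 eil1 lay close together. Photosystem genes had medians of 0.94 without and 1.16 with EIN3 and EIL1, PIF-induced genes -1.32 and -1.63. These raw medians carry an offset, because the median over all genes was 0.13 without EIN3 and EIL1 and -0.05 with them. Relative to all genes, light-harvesting genes had medians of 1.0 without and 1.75 with EIN3 and EIL1, photosystem genes 0.81 and 1.21. PIF-induced genes had -1.45 and -1.58 on that measure, closer together than their raw medians. None of these contrasts between settings was tested.

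**Figure D5:**
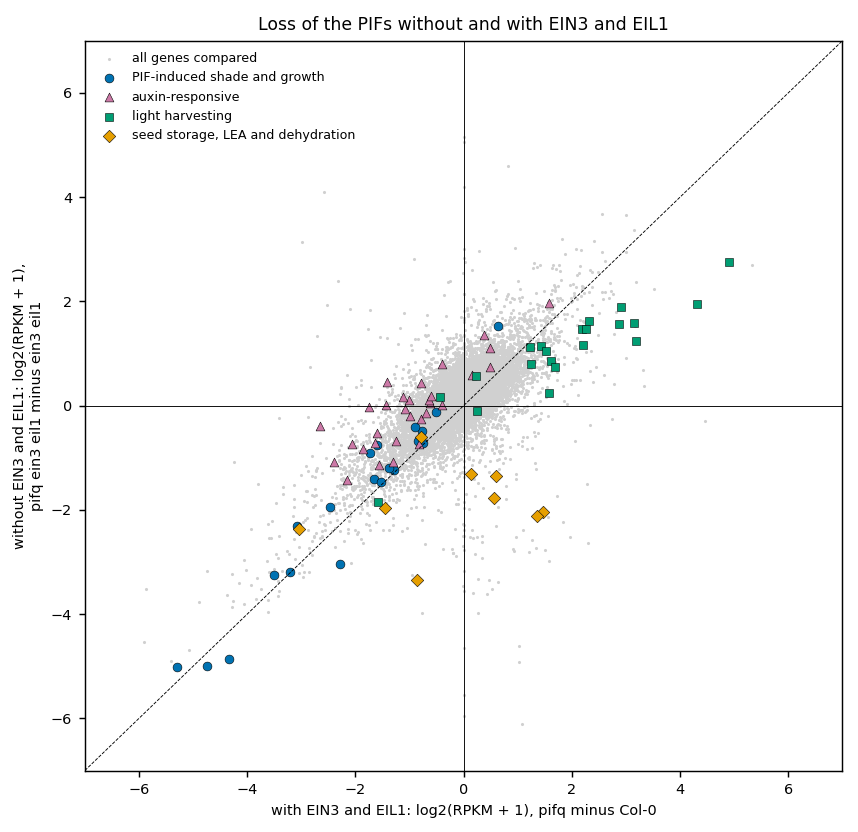
Difference in log2(RPKM + 1) of each of 17834 genes without EIN3 and EIL1 (vertical, pifq ein3 eil1 minus ein3 eil1) and with them (horizontal, pifq minus Col-0); 4 genes lie beyond the axis limit of 7 and the dashed line marks equal differences. PIF-induced genes (blue) run along the line, light-harvesting genes (green) lie mostly below it, auxin-responsive genes (pink) mostly above it, and 5 of the 9 seed and dehydration genes (orange) lie below 0 on the vertical and above 0 on the horizontal axis. Of the 13 seed and dehydration genes listed, 5 reached 1 RPKM in pifq or Col-0. Of the 9 plotted, 6 passed the filter through ein3 eil1 alone and had to lie below 0 on the vertical axis.

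Some genes called in pifq ein3 eil1 had a smaller or an opposite difference in pifq. Of the 750 higher genes, 242 lay below 0.5 in pifq over Col-0, and of the 741 lower genes, 134 lay above -0.5, genes of the opposite sign included. No minimum RPKM in pifq or Col-0 was set for these counts, and organelle-encoded genes were kept in them. Of the plastid-encoded genes, 54 of 77 were lower in pifq ein3 eil1, but 8 of 76 compared were lower in pifq. XTH7 stood at 53.7 RPKM in pifq ein3 eil1 and 8.33 in ein3 eil1, but at 42.2 RPKM in pifq and 42.4 in Col-0, so ein3 eil1 was the low value among 4. The zinc finger gene RHL41, of the stress response, stood at 21.9 RPKM in pifq ein3 eil1 and 5.92 in ein3 eil1, and at 7.69 RPKM in pifq and 7.16 in Col-0, so here pifq ein3 eil1 was the high value. CA1, a chloroplast carbonic anhydrase, stood at 97.1 RPKM in pifq ein3 eil1 and 448 in ein3 eil1, and at 70.7 RPKM in pifq and 122 in Col-0, differences of -2.19 and -0.78. GATA2, a transcription factor of photomorphogenesis, stood at 27.8 RPKM in pifq ein3 eil1 and 68.9 in ein3 eil1, and at 43.1 RPKM in pifq and 70.0 in Col-0, differences of -1.28 and -0.69. In turn, 305 genes called lower in pifq lay above -0.5 without EIN3 and EIL1, and 127 called higher in pifq lay below 0.5, again with opposite signs included. For these, no minimum RPKM was set in pifq ein3 eil1 or ein3 eil1.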

How the data were processed

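The authors deposited RPKM, 1 value per gene and genotype, taken here as the mean of 2 samples. Reads were aligned with BWA 0.7.7 to TAIR10, per the submitters' processing notes; the sources used here do not name the counting tool, its strand setting or the gene lengths. Libraries were directional and read as paired 150 nt reads, per the labels. Depth is unknown.

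Differences were taken on log2(RPKM + 1) for genes with 1 RPKM or more in either column, with 1 as the threshold. limma, planned for values per sample, could not be run. The deposited description column did not match the identifiers and was not used. The values do belong to them: 379 ribosomal protein and proteasome genes, named by RefSeq, had medians of 82.5 RPKM in pifq ein3 eil1 and 71.6 in ein3 eil1, against 1.72 to 4.90 on lines up to 3 away. RefSeq named 32817 identifiers and not 742.

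Members, gene lists and tests were chosen with earlier results of these data known, and 3 lists (phosphate starvation, wax, aquaporins) after the largest differences were seen. Named genes were the mutated genes, the 12 farthest each way with a symbol and 10 RPKM or more, up to 6 called members per list, the 8 largest shared with pifq each way, opposite calls, and the 6 each way closest to 0 in pifq. Genes listed under 0.001 RPKM were not named. Alternatives were pseudocounts of 0.1 and 0.5, no filter, 5 RPKM, median-of-ratios scaling, a threshold of 2 and leaving out zeros. The counting step was tested on simulated data with planted changes. That checks the counting only, because the spread between real replicates is unknown. Python 3.11.15, pandas 2.3.3, numpy 2.4.6 and matplotlib 3.10.9 were used.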

Additional observations from a re-analysis of the deposited data

Results flagged for a closer look

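RTFL12, which encodes a small peptide of the ROTUNDIFOLIA-like family, went opposite ways in the 2 settings. It stood at 27.9 RPKM in pifq ein3 eil1 and 10.8 in ein3 eil1, a difference of 1.29, and at 17.1 RPKM in pifq and 47.1 in Col-0, a difference of -1.41. The difference between the settings was not tested. Of 34 genes called in opposite directions, 14 were encoded in plastids or mitochondria, and RTFL12 was the 1 that met the rule for naming.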

How the results depend on the processing

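With a pseudocount of 0.1, 1177 genes were higher and 1075 lower, and 57 were called in opposite directions in both comparisons. With 5 RPKM or more in either column, 21 were opposite, and without genes listed at 0, 18. The median over all genes was 0.00 without a filter and -0.00 after median-of-ratios scaling. At a threshold of 2, 106 genes were higher and 181 lower, 39 were higher in both comparisons, 100 lower in both and 5 opposite. Of 135 named genes, none past the threshold changed direction under any of these settings, although small differences such as that of EF1A, 0.13 and -0.02 after scaling, did; 15 fell under the threshold after scaling and 73 at the threshold of 2. After scaling, 3 photosystem genes and 2 clock genes were higher in place of 9 and 4. The cause of these shifts was not tested. No paired analysis was possible because the table holds 1 mean per genotype, and for the same reason no replicate could be left out. Under the filter of 1 RPKM and a pseudocount of 1, the 80 genes listed at 0 in 1 column had to be called. Such a 0 can be a failed estimate.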

Other observations

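Surface and water transport genes, in lists drawn up after their values were seen, held some of the large differences. Of 9 wax, cutin and suberin genes compared, 3 were lower and 1 higher. CER1, which is needed to make wax alkanes, stood at 9.26 RPKM in pifq ein3 eil1 and 93.2 in ein3 eil1, FAR1 (AT5G22500), a fatty acyl reductase, at 8.88 RPKM in pifq ein3 eil1 and 85.3 in ein3 eil1, and KCS2, a fatty acid elongase, at 5.37 RPKM in pifq ein3 eil1 and 15.6 in ein3 eil1. MAH1, which oxidises alkanes further, stood at 7.76 RPKM in pifq ein3 eil1 and 0.397 in ein3 eil1. MAH1 passed the filter through pifq ein3 eil1 alone and had to stand higher there. Of 19 aquaporin genes, 3 were lower and 1 higher: PIP2;4 stood at 13.3 RPKM in pifq ein3 eil1 and 112 in ein3 eil1, TIP2;3 and TIP4;1 differed by -3.19 and -1.80, and PIP2;8 was at 34.7 RPKM in pifq ein3 eil1 and 14.9 in ein3 eil1. The abundant TIP1;2, at 3056 RPKM in pifq ein3 eil1 and 3180 in ein3 eil1, differed by -0.06.

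Long noncoding RNAs were called higher more often than protein-coding genes. Of 133 compared, 18 were higher (13.5%) and 5 lower, beside 709 of 17295 protein-coding genes higher. Among the nuclear ribosomal RNA entries, AT3G41768 was listed at 13163 RPKM in pifq ein3 eil1 and at 0 in ein3 eil1, and AT2G01010 stood at 5727 RPKM in pifq ein3 eil1 and 19600.2 in ein3 eil1; these near-identical repeats can exchange reads.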
